A study of Mus musculus with 3 samples.

Results

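The nuclear genes for subunits of mitochondrial respiratory chain complexes I to V were examined in primary mouse monocytes. They were taken by gene name from the GENCODE annotation, as the Ndufa, Ndufb, Ndufc, Ndufs, Ndufv, Uqcr, Cox4 to Cox8 and Atp5 families together with Sdha, Sdhb, Sdhc and Sdhd. This gave 94 of 21851 protein-coding genes. Complex I held 36 of them, complex II 4, complex III 8, complex IV 20 and complex V 17, and the other 9 carry the same name stems. These 9 were grouped as assembly factors. They are Ndufaf1 to Ndufaf8, which act in assembly, and Atp5s, which was placed with them as a member that is not a subunit. Ndufa4 and Ndufa4l2 were placed with complex IV, where the Ndufa4 protein resides.

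The study mapped open chromatin by DNase-seq, in which DNase I cuts DNA that is not packed by nucleosomes and the cuts are sequenced. All 3 libraries were monocytes from adult female B6CASTF1/J mice of 2 months, the F1 cross of C57BL/6J and CAST/EiJ, with no treatment named, and they form 1 group numbered biological replicates 1, 2 and 4. The labels share 1 donor identifier and do not tie the libraries to different animals, so the spread between them may be technical. With 1 group there was nothing to test between conditions, and every comparison below is a description of the respiratory chain genes beside all protein-coding genes in the same libraries.

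The respiratory chain carries electrons from NADH and succinate to oxygen through complexes I to IV and builds the proton gradient that complex V, the ATP synthase, uses to make ATP. A small set of core subunits is encoded in mitochondrial DNA, while the others are nuclear genes on many chromosomes whose products must be made together. Their promoters are known for CpG islands and for sites of NRF1, of the ETS factor GABP and of YY1. Several complex IV subunits exist as pairs of genes, with a widely used form and a form restricted to heart and skeletal muscle, lung, testis or hypoxic cells.

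A promoter peak was a deposited DNase peak that reached within 1000 bp of a coding transcription start site (TSS) of the gene, upstream or downstream. The libraries held 54046, 42657 and 48980 peaks and 144028, 107955 and 119597 footprints in replicates 1, 2 and 4. Footprints are short stretches inside open chromatin that are protected from DNase I, as the authors called them. Of 8 monocyte marker genes, 5 (Csf1r, Itgam, Cx3cr1, Spi1 and Cd68) had such a peak in all 3 libraries, Fcgr4 had it in replicates 1 and 4, Ly6c2 in replicate 1 and Ccr2 in none. Markers of T cells, B cells, liver and muscle had a promoter peak in all 3 libraries in 0 of 5, 0 of 4, 0 of 3 and 0 of 8 genes, and the neutrophil list had it in 1 of 6, at S100a8. Tnnt3 of the muscle list had a low peak in 2 libraries, at heights of 0.701 and 0.706 in replicates 1 and 4.

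Promoters with several NRF1 motifs or a CRE under a footprint, and a pair of muscle-type genes that differ in these cells, are shown first. The sequences are from the RefSeq promoter table of GRCm38.p6 and are given 5′ to 3′ in the direction of transcription of the gene. Capitals mark bases under a footprint in all 3 libraries. The mice carry a CAST/EiJ genome beside that of C57BL/6J, and the letters are those of the reference. In the first 3 promoters the stretch from position -200 to -1 before the RefSeq start holds several copies of the NRF1 motif (10 letters with 1 free position, read on either strand).
Sdha (chr13:74350241-74350440, minus strand): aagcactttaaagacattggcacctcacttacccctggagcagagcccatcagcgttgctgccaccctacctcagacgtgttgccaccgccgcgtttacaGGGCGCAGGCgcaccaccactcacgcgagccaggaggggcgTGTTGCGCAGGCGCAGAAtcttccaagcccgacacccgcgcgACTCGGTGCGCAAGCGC
Ndufb4 (chr16:37654369-37654568, minus strand): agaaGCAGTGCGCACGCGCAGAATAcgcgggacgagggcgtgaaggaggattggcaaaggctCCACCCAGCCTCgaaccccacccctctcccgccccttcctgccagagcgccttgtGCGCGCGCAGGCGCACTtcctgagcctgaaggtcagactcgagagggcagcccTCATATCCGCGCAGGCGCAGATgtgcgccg
Cox6a1 (chr5:115348959-115349158, minus strand): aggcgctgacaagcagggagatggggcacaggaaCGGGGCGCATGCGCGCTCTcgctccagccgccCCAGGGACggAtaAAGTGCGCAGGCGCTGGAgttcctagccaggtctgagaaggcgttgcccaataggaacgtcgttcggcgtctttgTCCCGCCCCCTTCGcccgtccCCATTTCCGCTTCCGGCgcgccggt

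Sdha, the flavoprotein of succinate dehydrogenase, held 3 NRF1 matches, beginning at positions -10, -55 and -98. Ndufb4, an accessory subunit of complex I, also held 3, beginning at -22, -79 and -191, and Cox6a1 held 2, beginning at -117 and -162. The middle of each of these 8 matches lay under a footprint in all 3 libraries. Of the 200 bases shown, 45 were under a footprint in all 3 libraries in Sdha, 72 in Ndufb4 and 77 in Cox6a1. The capitals thus include the middle of every NRF1 match with some bases beside it, and in Cox6a1 also a GC box (GGGCGG on the other strand, from position -44) and an ETS core (CCGGAAG on the other strand, from position -16).

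The next 3 stretches, of 40 bases each, hold the cyclic AMP response element (CRE, TGACGTCA). They are the respiratory chain promoters in which it lay under a footprint in all 3 libraries. They make up 4.05% of open respiratory chain promoters with a RefSeq sequence, against 2.84% of all such open promoters.
Ndufa10 (chr1:92473803-92473842, minus strand, positions -84 to -45): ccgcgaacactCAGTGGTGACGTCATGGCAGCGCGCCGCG
Ndufb2 (chr6:39592525-39592564, plus strand, positions -40 to -1): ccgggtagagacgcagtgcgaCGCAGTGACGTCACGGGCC
Uqcrfs1 (chr13:30545322-30545361, minus strand, positions -45 to -6): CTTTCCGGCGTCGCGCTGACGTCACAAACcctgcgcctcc

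The last pair are muscle-type subunits of complex IV on chromosome 7, of which Cox7a1 was open in these monocytes and Cox8b was not.
Cox7a1 (chr7:30183971-30184170, plus strand, positions -200 to -1): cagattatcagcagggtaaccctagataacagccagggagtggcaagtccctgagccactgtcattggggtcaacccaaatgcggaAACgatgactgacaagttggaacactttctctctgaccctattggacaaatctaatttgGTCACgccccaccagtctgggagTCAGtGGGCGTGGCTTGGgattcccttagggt
Cox8b (chr7:140900447-140900646, minus strand, positions -200 to -1): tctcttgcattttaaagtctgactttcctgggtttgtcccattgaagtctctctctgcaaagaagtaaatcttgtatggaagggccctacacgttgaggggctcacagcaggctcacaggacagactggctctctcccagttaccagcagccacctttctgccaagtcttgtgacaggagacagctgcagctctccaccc

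Cox7a1 had 25 of 200 bases under a footprint in all 3 libraries, and Cox8b had 0. Neither of these 2 stretches held an NRF1 match.

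Respiratory chain promoters were open almost throughout. Of the 94 genes, 87 (92.6%) had a promoter peak in each of the 3 libraries, against 50.5% of all 21851 protein-coding genes. The share of all genes was 54.3%, 52.2% and 52.9% in replicates 1, 2 and 4 taken singly, and the same 87 respiratory chain genes were open in each. The other 7 had no promoter peak in any library, against 44.1% of all genes, so that no gene of the set was open in some libraries and closed in others, whereas 1192 of all genes were. All 36 genes of complex I, the NADH dehydrogenase, were open, as were all 4 of complex II, all 8 of complex III and all 9 assembly factors. In complex V 16 of 17 were open and in complex IV, the cytochrome c oxidase, 14 of 20. The authors' shorter peak list gave the same count of 87, against 46.9% of all genes.

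The 7 closed genes were Cox4i2, Cox6a2, Cox7b2, Cox8b, Cox8c, Ndufa4l2 and a second record of Atp5o. Of these, 6 are tissue-restricted isoforms. The seventh is a long gene record (ENSMUSG00000116933.1, chr16:91684398-91926982, minus strand) that carries the Atp5o name and starts inside the full Atp5o gene. The full gene (ENSMUSG00000022956.11, chr16:91925214-91931687, minus strand), which codes for the stalk subunit known as OSCP, was open, with heights of 3.29, 2.71 and 4.80 in replicates 1, 2 and 4. None of the 7 had a single base with a false discovery rate (FDR) of cleavage below 0.05 in its window in any library, by the authors' deposited FDR values. By contrast the windows of the 7 widely used complex IV partners held from 191 to 815 such intervals per library.

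The height of a peak, as the authors gave it, ranks peaks within a library, and its scale is not stated. The gene's height below is that of its tallest promoter peak, and genes within a complex are ranked by their mean percentile over the 3 libraries. The median over the 87 open respiratory chain genes was 5.0, 4.05 and 6.32 in replicates 1, 2 and 4, against 3.60, 3.13 and 4.65 over all genes with a promoter peak. As a percentile among all peaks of the same library, the median was 91.9, 89.2 and 90.7 for respiratory chain genes and 87.3, 84.7 and 86.3 for all genes. The respiratory chain genes were thus higher in 3 of 3 libraries, and these medians averaged 90.6 ± 1.35 and 86.1 ± 1.31 (SD, n = 3 libraries). Open genes with a CpG ratio above 0.6, a ratio defined below, were nearer to the set. Their median height was 4.35, 3.72 and 5.67, and their median percentile 90.1, 87.7 and 89.2. Of the 87 genes, 55 (63.2%) lay above the library's median of open promoters in all 3 libraries, against 48.7% of the 11029 genes open in all 3. Among those with a CpG ratio above 0.6 it was 56.7%. In all 3 libraries 40 of the 87 (46.0%) lay above the 90th percentile of peaks, against 35.8% of those 11029 genes.

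The low end of the distribution was also thin. The percentile fell below 50 in at least 1 library for 2 of the 87 (2.30%) and for 12.8% of all genes open in all 3 libraries. The genes kept their place between libraries. The percentile differed by at most 5 points between libraries for 72 of 87 (82.8%), against 62.4% of all open genes. Median ranges were closer, at 3.07 points against 3.55. Since the set had fewer low percentiles, the 2 groups differ in height as well. The part of height in the smaller range was not tested. Heights ran highest in replicate 4, then replicate 1, then replicate 2 for 81 of 87 respiratory chain genes (93.1%) and for 79.7% of all open genes, so differences in height between libraries were shared across genes.

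**Figure D1:**
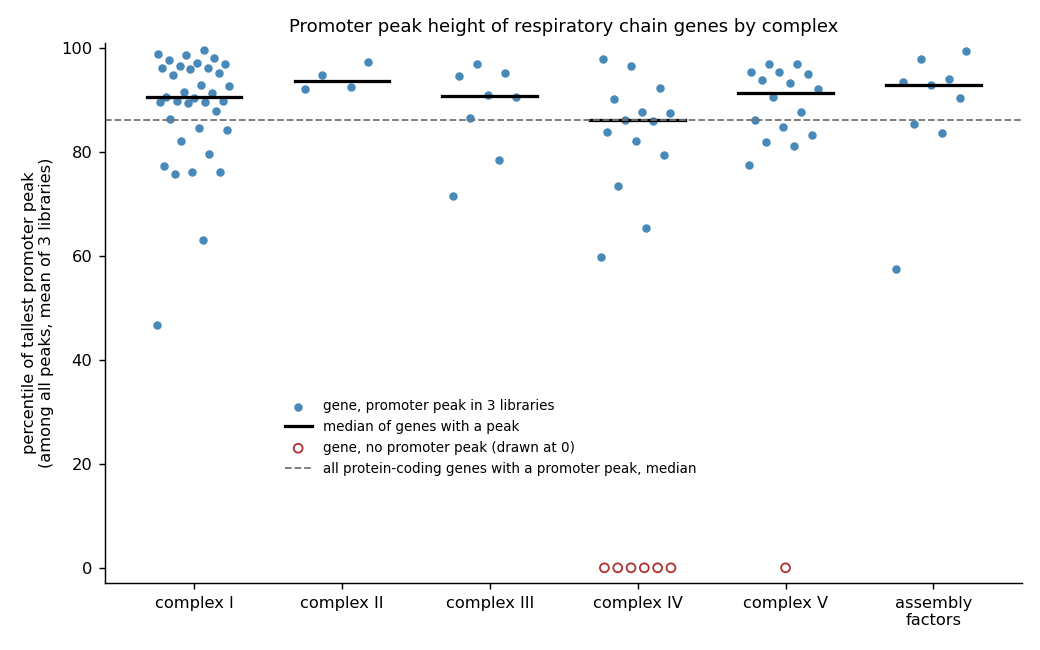
Percentile of each gene's tallest promoter peak among all peaks of its library (vertical axis, mean of 3 libraries) by complex. Filled points are genes with a promoter peak in all 3 libraries, black lines are their medians, open red circles at 0 are the 7 genes without a promoter peak, and the dashed line is the median of all protein-coding genes with one; 6 of the open circles belong to complex IV.

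Complex I is the entry point for electrons from NADH. Its median height was 5.21, 4.19 and 6.34 in replicates 1, 2 and 4. The tallest was Ndufa7, an accessory subunit, at 12.7, 10.8 and 17.0 and a mean percentile of 99.6. It faces the ribosomal protein gene Rps28 head to head, and the peak centre in replicate 1 lay 11 bp from the Rps28 start. Ndufs7, the core subunit that carries the last iron-sulfur cluster before ubiquinone, ranked second at 10.2, 8.97 and 14.1, although Ndufa13 was above it in replicate 1. The lowest were Ndufc2, at 1.40, 1.26 and 1.58, and the X-linked Ndufa1, at 0.899, 0.913 and 1.01. Both lay below the medians of all open genes in every library.

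Complex II, succinate dehydrogenase, links the chain to the tricarboxylic acid cycle, and all 4 of its genes stood above the median of all open genes in each library. Sdhc, a membrane anchor, reached 9.45, 6.24 and 12.7 in replicates 1, 2 and 4. Sdha reached 6.25, 5.56 and 9.73. Sdhb, the iron-sulfur subunit, reached 5.54, 4.31 and 7.71, and Sdhd, the other anchor, 5.18, 4.95 and 7.49. Sdhb was above Sdhd in replicates 1 and 4 and below it in replicate 2, so these 2 have no stable order.

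In complex III, which passes electrons from ubiquinol to cytochrome c, the median was 4.92, 4.19 and 6.50. Uqcrfs1, the Rieske iron-sulfur protein, was tallest at 8.26, 6.82 and 11.0, and Uqcrq ranked second at 7.84, 5.30 and 9.33, although Uqcrh was above it in replicate 4. However, the tallest Uqcrh peak was nearest to the start of another gene, Lrrc41, in replicates 1 and 2. Within 200 bp of a Uqcrh start the tallest peak had 3.36, 2.57 and 3.92, below Uqcrq in each library. Uqcrc2, a core protein, had 2.47, 2.39 and 2.54, and Uqcrb had 2.15, 1.67 and 1.81. For Uqcrb the tallest of the 3 values was in replicate 1, unlike most genes of the set, which were tallest in replicate 4.

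Complex IV had the lowest median, 3.84, 3.05 and 4.34 over its 14 open genes. Without the 2 open tissue-restricted isoforms it was 3.90, 3.12 and 4.63, below all other complexes in each library and near the median of all open genes. Cox6a1 ranked first at 8.50, 9.42 and 10.9, and was 1 of 4 open genes taller in replicate 2 than in replicate 1, with Ndufa1, Ndufb6 and Ndufaf1. Cox5b, which binds zinc, ranked second at 7.46, 6.45 and 11.3 and was above Cox6a1 in replicate 4. The 2 lowest were the X-linked Cox7b and the testis isoform Cox6b2.

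Complex V had a median of 4.99, 4.34 and 7.12. Its tallest were Atp5c1, the central shaft subunit, at 8.50, 7.45 and 10.1, and Atp5g1, at 9.14, 6.95 and 9.72. The lowest were Atp5l, a membrane subunit, at 2.32, 1.89 and 3.07, and Atp5a1, the alpha subunit of the catalytic head, at 2.60, 2.35 and 3.78, although Atp5e and Atp5j2 were below Atp5a1 in replicate 4. The 5 genes of the F1 head had a median of 5.87, 4.97 and 8.09. The rotating c ring is made of 1 protein encoded by 3 genes, which differ in their import sequences, and all 3 were open. Their heights fell in the order Atp5g1, then Atp5g2 (6.06, 5.54 and 8.14), then Atp5g3 (3.82, 3.32 and 4.07) in each library.

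The assembly factors had a median of 5.32, 4.68 and 7.81. Ndufaf8 stood at 13.3, 8.70 and 18.0 (mean percentile 99.3), and Ndufaf7, a methyltransferase of complex I assembly, at 9.31, 7.20 and 13.1. Ndufaf5 had 3.17, 2.75 and 3.87 and Ndufaf1 had 1.25, 1.40 and 1.03. The Ndufaf8 peak lay 80 bp from the start of its head-to-head neighbour Tepsin in replicate 1.

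The isoform pairs of complex IV gave the sharpest contrast within the set. Of the 8 tissue-restricted forms 2 were open (25%), and of the 7 widely used partners all 7 were, against 50.5% of all genes. Cox4i2, the lung form that is also induced by hypoxia, had no peak (chr2:152754173-152765037), while Cox4i1 had heights of 2.82, 2.28 and 4.15 in replicates 1, 2 and 4. Cox6a2, the heart and muscle form, had no peak (chr7:128205435-128206387), while Cox6a1 had the heights of 8.50, 9.42 and 10.9 given above. Cox8b of muscle (chr7:140898945-140900446) and Cox8c of testis (chr12:102899316-102900526) had none, while Cox8a had 5.89, 4.60 and 6.99. Cox7b2 of testis (chr5:71442824-71548205) had none, while Cox7b had 1.44, 1.28 and 1.88. Ndufa4l2, the form induced by hypoxia, had none (chr10:127514967-127517154), while Ndufa4 had 4.30, 3.33 and 4.89. A peak outside the promoter window, at -1.97, -1.95 and -1.97 kb from the Ndufa4l2 start and nearest to that gene, stood at 5.22, 4.64 and 6.96, above the Ndufa4 promoter peak in each library.

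In the remaining 2 pairs both genes were open, and the widely used form was taller in each library. Cox7a1 of heart and muscle had heights of 3.25, 2.93 and 3.65, against 4.96, 3.76 and 6.33 for Cox7a2. The Cox7a1 peak was centred 13, 23 and 13 bp before its start at percentiles of 85.6, 83.5 and 82.3, and held 4, 4 and 6 footprints. Cox6b2 of testis had 1.26, 1.04 and 1.68, against 2.41, 2.14 and 3.45 for Cox6b1. Cox7a1 lay below the median of all genes with a promoter peak in each library. The genes of the muscle list, which includes Ckm, Acta1, Actc1, Myh1, Myh6 and Ttn, had no promoter peak except the low one at Tnnt3. The part of other cells in the Cox7a1 peak was not tested.

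**Figure D2:**
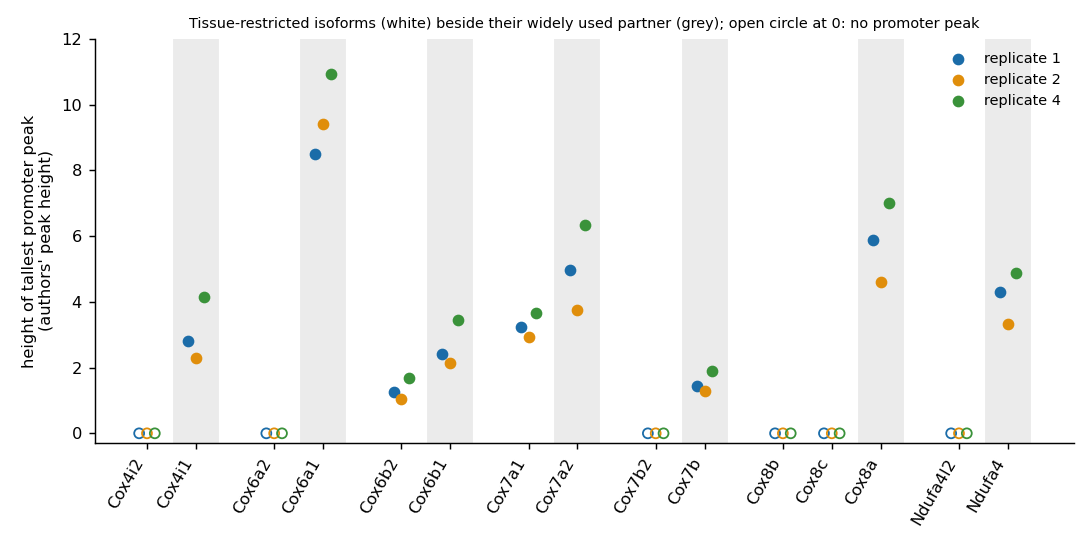
Height of the tallest promoter peak (vertical axis, the authors' peak height) in each of the 3 libraries for tissue-restricted isoforms (white background) beside their widely used partners (grey background). Open circles at 0 mark genes without a promoter peak; Cox6b2 and Cox7a1 are the tissue-restricted forms with filled points, and each lies below its partner in every library.

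The closed promoters were all poor in CpG. The ratio of observed to expected CpG in 1000 bp centred on the most upstream start (500 bp to each side) exceeded 0.6 for 75 of 94 respiratory chain genes (79.8%), against 47.5% of all genes. All 75 were open, and 8406 of 10379 genes above that ratio were open in the whole annotation (81.0%). Below the ratio 12 of 19 respiratory chain genes were open, and 22.9% of all such genes. All 8 tissue-restricted isoforms lay below it, with Cox7a1 at 0.277, Cox8b at 0.245 and Cox6b2 at 0.432. The 25% of them that were open is near the 22.9% of all such genes. Of their 7 widely used partners Cox7b, at 0.482, was below it. The other 6 lay above it, where 81.0% of all genes were open.

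The 3 X-linked genes of the set were all low. Ndufb11 of complex I had 2.05, 1.70 and 3.32 in replicates 1, 2 and 4, beside the values of Ndufa1 and Cox7b above. Their median was 1.44, 1.28 and 1.88, and that of the autosomal respiratory chain genes was 5.17, 4.19 and 6.54. X-linked genes as a whole were lower too, with a median of 1.97, 1.78 and 2.48 over those with a promoter peak, against 3.69, 3.18 and 4.75 for autosomal genes.

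The open stretches themselves were compact. The total width of promoter peaks per open gene had a median of 260, 240 and 220 bp in replicates 1, 2 and 4, against 340, 288.5 and 280 bp for all genes with a promoter peak. Cytosolic ribosomal protein genes, at 280, 240 and 260 bp, and proteasome subunit genes, at 300, 260 and 240 bp, were also below all genes. A promoter held exactly 1 peak in 71.3%, 81.6% and 78.2% of respiratory chain genes and in 51.8%, 57.3% and 55.8% of all genes. The tallest peak was centred within 200 bp of a start of the gene in 93.1%, 92.0% and 92.0% of respiratory chain genes, against 80.1%, 81.3% and 81.1%. For ribosomal protein genes this was 93.8% in each library, and for proteasome genes 89.5%, 92.1% and 89.5%. Footprints per open promoter were about as many as elsewhere, with a mean of 5.36, 4.82 and 4.72 against 5.30, 4.73 and 4.75. Per 100 bp of promoter peak the respiratory chain genes had more, with 1.70, 1.64 and 1.70 against 1.22, 1.23 and 1.26.

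Footprints gathered close to the start. In the 50 bp before it there were 105, 95.4 and 117 footprints per 100 open respiratory chain genes, against 86.0, 81.6 and 85.0 per 100 of all open genes. From 50 to 100 bp after the start there were 73.6, 65.5 and 73.6 against 50.5, 41.2 and 44.4. Beyond 200 bp on either side the respiratory chain genes mostly had fewer.

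**Figure D3:**
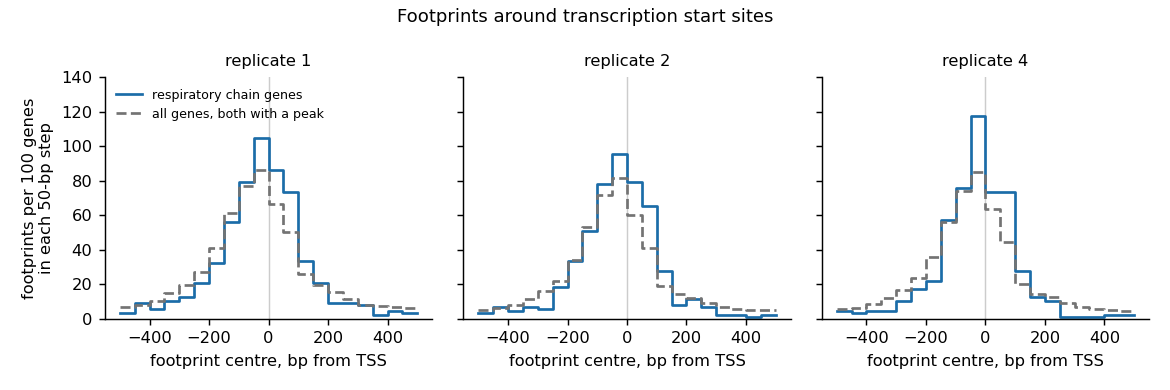
Footprints per 100 genes in steps of 50 bp (vertical axis) by distance of the footprint centre from the start site (horizontal axis, bp, negative before the start) in each library. The solid line is the 87 open respiratory chain genes and the dashed line all 11029 open genes; the solid line is higher within 50 bp before the start and up to 100 bp after it in all 3 libraries.

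By the mean over libraries the most footprints were at Atp5g2, with 13, 11 and 9 in replicates 1, 2 and 4. Ndufa13 followed with 10, 8 and 13, Uqcrh with 11, 11 and 8 and Ndufa11 with 9, 12 and 8. Atp5j, coupling factor 6 of the ATP synthase stalk, had 11, 5 and 12, and Uqcrq had 8, 12 and 7. The order of these genes changed from library to library. Of these 6 genes, 4 had their tallest window peak nearer to the start of a neighbouring gene in replicate 1 (Ndufa13, Uqcrh, Ndufa11 and Atp5j), so their counts include footprints at that neighbour's start.

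Shared promoters were common in the set. A coding start on the opposite strand lay head to head within 1000 bp of 27 of the 94 genes (28.7%), against 9% of all genes. That share was 15.8% of genes with a CpG ratio above 0.6, 20% of proteasome genes and 15.5% of ribosomal protein genes. Sdhd faces Timm8b, which codes for an import chaperone of mitochondria. Sdha faces Ccdc127 and Cox4i1 faces Emc8. Ndufs6 faces the mitochondrial ribosomal protein gene Mrpl36, and Atp5j faces Gabpa, which encodes the DNA-binding subunit of GABP. In 10 of the 87 open genes the tallest peak was nearer to a start of another gene in all 3 libraries (11.5%), against 8.35% of all open genes.

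At Atp5f1 and Atp5j the tallest peak lay beside a RefSeq start as well as a neighbour's start. The tallest Atp5f1 peak (7.09, 5.87 and 9.68) lay 778 bp after the most upstream GENCODE start in replicate 1 and 57 bp from the RefSeq start. The tallest Atp5j peak, shared with Gabpa at 4.16, 3.17 and 5.37, was 522 bp after the most upstream GENCODE start in replicate 1 and 4 bp from a RefSeq start. At Ndufa13 the tall peak (10.4, 8.64 and 13.7) was 330 bp from the RefSeq start and nearest to Tssk6, and within 200 bp of its own GENCODE start there was a low peak of 0.882 and 0.700 in replicates 1 and 2 and none in replicate 4. Over the 74 open genes with a RefSeq start, the tallest peak was centred within 200 bp of it in all 3 libraries for 67. With the window narrowed to 200 bp around GENCODE starts, 84 of 94 genes (89.4%) were open in all 3 libraries, against 47.0% of all genes, and the 3 that dropped out were Atp5f1, Atp5j and Ndufa13.

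Sequence motifs were counted in the RefSeq promoters, which span 250 bases before and 50 from the start. A promoter was matched for 76 of the 94 genes, of which 74 were open, and for 16707 of 21851 genes, of which 8828 were open. The NRF1 motif occurred in 18 of 74 open respiratory chain promoters (24.3%), against 11.8% of open promoters and 6.87% of all promoters. Of its 24 matches 23, 22 and 23 lay under a footprint in replicates 1, 2 and 4 (95.8%, 91.7% and 95.8%), against 86.7%, 84.2% and 88.2% of matches in all open promoters. Bases of these promoters as a whole were under a footprint in 21.1%, 18.3% and 19.7%, against 17.4%, 14.6% and 16.2%. The NRF1 letters were therefore covered far more often than a base of the same windows, in respiratory chain promoters and in open promoters at large. An NRF1 match under a footprint in all 3 libraries was present in 17 of the 74 (23.0%), against 9.72% of open promoters.

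The NRF1 matches occurred in every complex, but unevenly. They occurred in 7 of 32 complex I promoters, 2 of 3 of complex II, 1 of 5 of complex III, 1 of 12 of complex IV, 5 of 14 of complex V and 2 of 8 of the assembly factors. In complex I the holders were Ndufa5, Ndufa6, Ndufa8, Ndufa11, Ndufb4, Ndufs5 and Ndufs6. In complex V they were Atp5g2, Atp5g3, Atp5h, Atp5k and Atp5o, and of these Atp5o lacked a footprint over the match in replicate 2. Uqcrc1 held 2 matches, at positions 5 and 30, of which the second was under a footprint in all 3 libraries and the first in none. Among 12 complex IV promoters, Cox6a1 alone had the motif, with both copies printed above. That share is below the 11.8% of all open promoters.

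The other motifs fell into different patterns. The SP motif (GGGCGG) was in 45.9% of open respiratory chain promoters, against 67.3% of open promoters. The ETS core (CCGGAAG), to which GABP binds, was in 23.0% against 20.6%, with 50%, 35% and 45% of matches under a footprint against 41.0%, 36.6% and 39.7%. It was under a footprint in all 3 libraries in Cox6a1, Ndufaf1, Ndufs8 and Sdhb, or 5.41% of the 74 against 5.23% of open promoters. The YY1 motif (11 letters) was in 12.2% against 4.41%, 7 of its 9 promoters in complex I, a complex with 32 of the 74 promoters. Its 9 matches were under a footprint in 11.1%, 11.1% and 22.2%, against 26.5%, 25.2% and 28.7% of matches in all open promoters. The THAP11 motif (12 letters) was in 9.46% against 5.07%, with 1 of 8 matches, in Uqcr10, under a footprint in each library (12.5%), against 29.0%, 19.3% and 16.8% of matches in all open promoters. The CRE was in 4 of 74, or 5.41% against 3.68%, and the footprint was absent at the fourth, in Ndufa11. Its matches were thus covered in 75% in each library, against 88.5%, 85.2% and 82.5% of matches in all open promoters.

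CCAAT boxes (CCAAT) were in 44.6% against 40.1%, E-boxes (CACGTG) in 8.11% against 10.7% and TATA letters (TATAAA) in 6.76% against 6.34%. The ESRRA motif (TCAAGGTCA) was in 2 of 74 (2.70%) against 0.249%, and neither match was under a footprint. The same held for all 22 matches in open promoters of all genes. The ZBTB33 motif (10 letters) was in 2.70% against 1.26%, and the PU.1 motif (GAGGAAGT) of the myeloid factor was in 2.70% against 3.30%. Matches were counted on both strands, and letters shared by overlapping motifs count for each. A match is a run of letters and was not taken as a bound site.

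**Figure D4:**
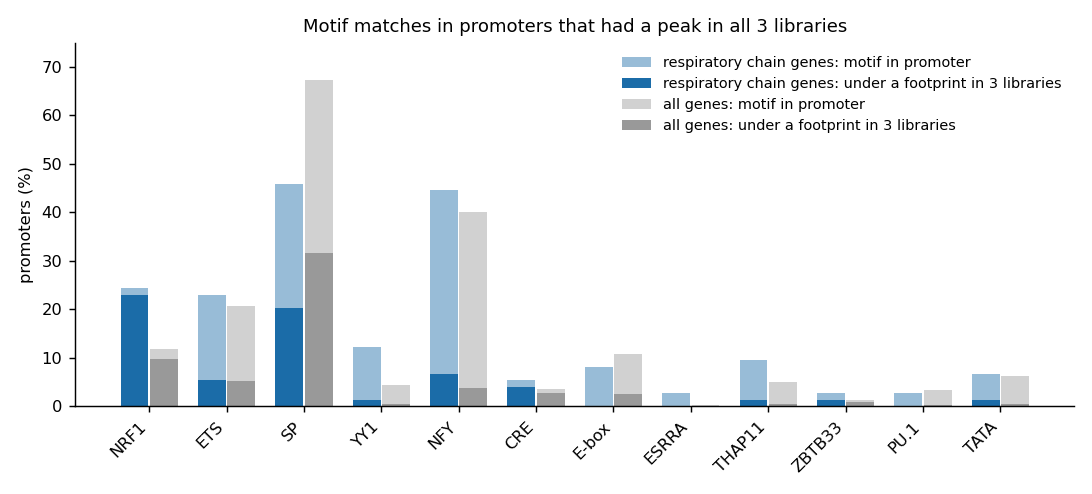
Share of promoters with each motif (vertical axis, percent) among 74 open respiratory chain promoters (blue, left bars) and 8828 open promoters of all genes (grey, right bars). Pale bars are promoters with a match and dark bars those with a match under a footprint in all 3 libraries; the dark NRF1 bar reaches 23.0% for respiratory chain genes and 9.72% for all genes.

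Distal peaks were peaks outside every promoter window and within 50000 bp of the most upstream start. Respiratory chain genes had a mean of 2.85, 2.26 and 2.78 in replicates 1, 2 and 4. This was above all genes, at 2.69, 2.05 and 2.47, in 3 of 3 libraries. It was below all genes with a CpG ratio above 0.6, at 3.12, 2.38 and 2.89, in each library. Proteasome subunit genes, at 4.0, 2.7 and 3.5, and cytosolic ribosomal protein genes, at 3.90, 3.04 and 3.71, were also higher in each library. No distal peak in any library was found for 18 of the 94 (19.1%), against 26.3% of all genes. The share was 14.9% of genes with a CpG ratio above 0.6, 7.5% of proteasome genes and 8.33% of ribosomal protein genes. A distal peak is counted for every gene within reach of it, and no link between peak and gene was measured.

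Among the genes with the most distal peaks, those of Cox4i1 were mostly nearest to Cox4i1 itself, and those of Sdhc, Atp5d and Atp5b mostly to neighbours. Cox4i1 had 13, 7 and 19 and thus varied widely between libraries, and 11, 6 and 13 of them were nearest to its own start. Of these 13, 7 and 19, 12, 6 and 16 lay downstream of its start, on the side of Irf8, the gene of a transcription factor of monocytes and dendritic cells, whose start was the nearest for 1 peak in replicate 1 and 3 in replicate 4. The tallest distal peak stood at 3.85, 3.35 and 5.98, above the Cox4i1 promoter peak itself in each library. Sdhc had 9, 10 and 10, of which 7, 7 and 8 were nearest to Cfap126. Atp5d had 9 in each library, shared out mainly between Cirbp, Midn and Sbno2, and the tallest of them stood at 10.8, 8.59 and 14.4. Sdhb had 9, 7 and 8, of which 4, 3 and 4 were nearest to Atp13a2. Atp5b had 7 in each library, 5 of them nearest to Baz2a. Ndufa2, whose window includes the start of the monocyte receptor gene Cd14, had 7, 6 and 7. Ndufa4l2 had 8, 6 and 6 and Cox4i2 had 8, 4 and 6, although neither promoter was open.

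**Figure D5:**
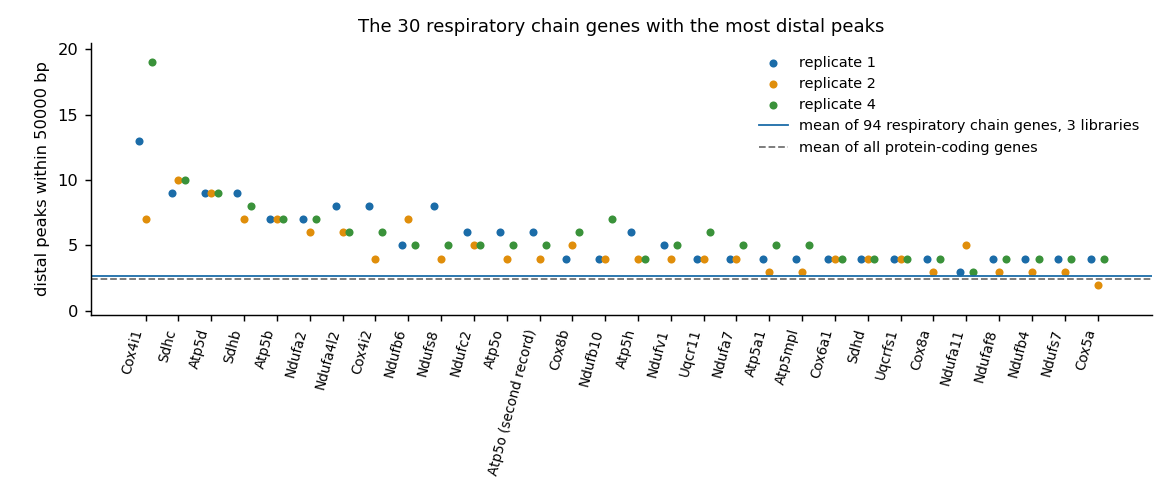
Number of distal peaks within 50000 bp of the most upstream start (vertical axis) in each library for the 30 respiratory chain genes with the most. The solid line is the mean of the 94 genes and the dashed line that of all protein-coding genes, which nearly coincide; Cox4i1 spans 7 to 19.

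Beside the structural genes, their accessory pathway was open almost throughout. All 37 assembly factors not taken by name, such as Surf1, Sco1, Sco2 and Foxred1, were open in all 3 libraries. The share was 50.5% of all genes and 81.0% of those with a CpG ratio above 0.6, as 32 of the 37 had. Their median height was 4.79, 4.07 and 6.06. Foxred1, needed for complex I, reached 11.1, 10.2 and 13.6, while Tmem70 of ATP synthase assembly had 0.866, 0.816 and 1.31. Cytochrome c showed the same split as the complex IV isoforms. The testis gene Cyct had no promoter peak, while the widely used Cycs had 11.3, 9.26 and 13.8.

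Of 19 regulators of respiratory chain genes 18 were open in all 3 libraries, against 50.5% of all genes, and 17 of the 19 had a CpG ratio above 0.6. Nrf1 itself had 3.91, 3.78 and 4.51, Yy1 had 10.5, 8.97 and 12.6 and Tfam, of mitochondrial transcription, 3.82, 2.92 and 5.20. Esrra, an orphan nuclear receptor, had 17.9, 15.4 and 28.2, the tallest of the regulators listed. Ppargc1a, the coactivator known for mitochondrial biogenesis in muscle and brown fat, had a peak in replicate 1 alone, at a height of 0.272. All 13 genes of the tricarboxylic acid cycle were open, and all 13 had a CpG ratio above 0.6, where 81.0% of all genes were open.

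Compared with 2 other housekeeping groups, the respiratory chain genes lay near the proteasome and below the ribosome in promoter height. Promoters were open in all 3 libraries for 87 of 94 respiratory chain genes, 38 of 40 proteasome subunit genes and 81 of 84 cytosolic ribosomal protein genes. The share was 50.5% of all genes and 81.0% of those with a CpG ratio above 0.6. The median height of 5.0, 4.05 and 6.32 for respiratory chain genes stood beside 4.80, 4.03 and 5.92 for proteasome genes and 6.04, 5.07 and 8.11 for ribosomal protein genes. Footprints per 100 bp of promoter peak were 1.70, 1.64 and 1.70 for the respiratory chain, 1.70, 1.56 and 1.64 for the proteasome and 1.74, 1.68 and 1.86 for the ribosome.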

How the data were processed

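DNase-seq of 3 monocyte libraries (1 group) was used. Per the labels, all files are on mm10; no source used here names the authors' aligner, peak caller or footprint method. The deposited peak lists give each peak a height, a signal value whose scale is not stated; every height was a whole multiple of 1 step per library (within 0.05 of a step), and the number of reads is unknown. The longer list was used, and the shorter one was an alternative. The deposited footprints carry 1 constant p-value threshold of 0.01, and the deposited false discovery rates, the kind of value known as q-values, list cleavage below 0.05.

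Starts came from GENCODE release M21 (basic set, 41438 protein-coding starts) and promoter letters from RefSeq (GRCm38.p6). Gene counts, medians, percentiles and motif counts were computed with Python 3.11.15, numpy 2.4.6 and pandas 2.3.3, and the interval counts were checked on simulated data against a plain loop. A footprint counted for a promoter if it lay in the window and touched a promoter peak. A motif match counted as covered if its middle base was. The genes named are all isoform pairs, closed genes, the 2 highest and 2 lowest per complex, the 6 with most footprints or distal peaks, and the Sdh and c ring genes. Genes named for a motif, for a start annotated elsewhere, for a neighbour or on the X chromosome, and other genes outside that rule, were chosen after their values were seen. The genes and lists were chosen with earlier results of these data known. Windows, peak lists, distances and left-out libraries were varied. No test was made, since there was 1 group.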

Additional observations from a re-analysis of the deposited data

How the results depend on the processing

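No paired analysis was possible because the 3 libraries form 1 group. The count of 87 open genes ranged from 85 to 88 under other peak lists, windows and libraries left out (84 with 200 bp around starts, chosen after seeing the data): Ndufa1 and Ndufaf1 were lost with the taller 50% of peaks, Atp5f1 with 500 bp, and Ndufa4l2 was gained with 2000 bp. The mean distal count of 2.63 was set by its definition: 1.86 with the shorter list, 1.37 with the taller 50% of peaks, 3.07 and 2.29 with promoter windows of 500 and 2000 bp, and 1.35 and 5.37 within 25000 and 100000 bp, against 1.59, 1.19, 2.73, 2.12, 1.21 and 4.70 for all genes. Footprints per promoter, 4.97, became 4.25 with 200 bp around starts, against 3.82. The share of NRF1 matches covered, a mean of 94.4%, was 91.7% if every base had to be. Leaving out each library gave median heights from 4.52 to 5.66, distal counts from 2.52 to 2.81, footprints from 4.77 to 5.09 and NRF1 coverage from 93.8% to 95.8%. Of 66 alternative values, 58 moved by less than the spread between libraries or left a count within 1.5 times. Leaving out 1 library cannot shift a mean of 3 by that spread. Each gene of the set was open in all 3 libraries or in none. The alternatives with a library left out could thus only count as unmoved. The open tissue-restricted isoforms rose from 2 to 3 with 2000 bp, which also counted as within 1.5 times. The number of reads is unknown, so whether a closed promoter is below detection cannot be told.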
